A study of Mus musculus with 24 samples.

Results

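The 8 genes described here encode the filament system and the membrane skeleton of the lens fiber cell: Bfsp1, Bfsp2, Vim, Sptan1, Sptbn1, Ank2, Tmod1 and Ezr. They were chosen by name, as the rows of the count table whose Entrez gene identifier belongs to one of these symbols, and all 8 were found among 24415 genes. All 8 passed the filter on low counts in every comparison, so none dropped out of a count given below. The data are RNA-seq libraries of total RNA from lenses of C57BL/6 mice, 24 libraries in 6 groups of 4. Lens epithelia and cortical fiber cells were each taken from wild-type mice (WT), from mice labelled LEGSKO, whose lenses are mildly deficient in glutathione, and from LEGSKO mice given buthionine sulfoximine (LEGSKO+BSO), whose deficiency is severe. The LEGSKO mouse is known to lack Gclc in the lens, a gene whose product catalyses the rate-limiting step of glutathione synthesis, and buthionine sulfoximine inhibits the same enzyme, so the LEGSKO+BSO group carries both the allele and the drug. The labels state neither the Cre driver nor the dose of the drug, age or sex, and they leave unsaid whether replicate libraries are separate animals. P-values below therefore measure the spread between libraries, which may be technical. The study's design compares the 3 conditions within a tissue, and the contrasts between tissues were added here.

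A lens fiber cell elongates from the epithelium, loses its organelles and keeps a cytoskeleton attached to its membrane. The beaded filament is an intermediate filament particular to these cells, built from filensin, encoded by Bfsp1, and phakinin, encoded by Bfsp2, and mutations of either gene are known to cause cataract. Vimentin, encoded by Vim, forms the ordinary intermediate filaments of epithelium and young fibers, while a lattice of spectrin, short actin filaments, ankyrin and tropomodulin lies under the fiber membrane and maintains its shape and packing.

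Library totals ran from 19.3 to 46.6 M (mega) counts, with the LEGSKO+BSO fibers deepest at 39 to 46.6 M. Tissue labels matched their markers: 13 of 13 fiber markers were higher in WT fibers with either scaling used below, and Mip, the main water channel of fibers, stood at 18020 to 33981 CPM (the count scaled to a common library size) in fibers and 403 to 1574 in epithelia. Of 11 epithelial markers 9 were lower in WT fibers (10 with total counts) and 1, Sfrp1, was higher under both scalings. Library 1 of WT fibers stood apart, since 16 crystallin genes took 50.1% of its counts against 27.6 to 34.3% in the other fiber libraries, and results that rest on it are given with and without it. Gclc, the targeted gene, had 44.8 to 64.3 CPM in WT epithelia, 30.8 to 48.3 in LEGSKO epithelia and 43.2 to 72.9 in LEGSKO+BSO epithelia. In fibers Gclc ran from 104 to 199 in WT, 98.2 to 120 in LEGSKO and 102 to 117 in LEGSKO+BSO, and a count over the whole gene need not show a deletion of part of it.

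The sequences before the transcription start were read from RefSeq's promoter table (GRCm38.p6) for the 3 filament genes, because Bfsp1 and Bfsp2 showed the widest gap between tissues of the 8 genes and Vim was the member that differed between conditions. Each run covers the 250 bases before the start, 5′ to 3′ on the gene's strand, and capitals mark matches to the motifs searched. They lie at chr2:143863174-143863423 (minus strand, 46.4% GC) for Bfsp1, chr9:103449177-103449426 (minus strand, 50.8% GC) for Bfsp2 and chr2:13574061-13574310 (plus strand, 58.4% GC) for Vim. The windows of Bfsp1 and Bfsp2 lie inside the span that RefSeq gives the whole gene.
Bfsp1: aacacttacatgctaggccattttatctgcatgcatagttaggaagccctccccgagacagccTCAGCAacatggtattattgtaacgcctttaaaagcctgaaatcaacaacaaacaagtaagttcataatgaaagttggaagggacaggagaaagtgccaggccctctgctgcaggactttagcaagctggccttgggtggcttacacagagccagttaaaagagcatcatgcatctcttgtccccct
Bfsp2: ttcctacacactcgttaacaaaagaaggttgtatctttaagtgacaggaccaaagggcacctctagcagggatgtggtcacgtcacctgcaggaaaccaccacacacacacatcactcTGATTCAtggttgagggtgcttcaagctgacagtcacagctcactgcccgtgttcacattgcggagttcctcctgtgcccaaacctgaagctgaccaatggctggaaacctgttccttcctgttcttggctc
Vim: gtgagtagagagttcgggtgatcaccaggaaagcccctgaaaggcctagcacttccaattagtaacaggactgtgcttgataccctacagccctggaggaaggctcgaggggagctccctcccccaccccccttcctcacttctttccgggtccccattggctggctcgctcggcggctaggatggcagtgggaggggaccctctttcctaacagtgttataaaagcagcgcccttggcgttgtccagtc

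The letter patterns were searched on both strands, with no overlap among their matches: TGCTGA, the core of the element bound by MAF factors, TGANTCA, an AP-1 type element with a free middle base, and GGGCGG, the GC box. Bfsp1 held a single TGCTGA, read as TCAGCA on the printed strand, 187 bases before the start site, a pattern present in 16.1% of 32851 promoters of the same length. The Bfsp2 window held TGANTCA 132 bases before the start, found in 6.75% of promoters, and that of Vim held none of the patterns. GGGCGG, found in 32.7% of promoters, occurred 5 times before Sptan1, 4 times before Tmod1, 2 times before Ezr and once before Sptbn1, and in none of the 3 windows printed. Ank2 held TGCTGA 79 bases before its start and Ezr TGANTCA 32 bases before. A match is a description of letters and not a binding site.

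By RefSeq on GRCm38.p6, Bfsp1 (gene 12075) spans chr2:143826528-143915219, Bfsp2 (107993) chr9:103424924-103480405, Vim (22352) chr2:13574311-13582826 and Tmod1 (21916) chr4:46038940-46116032. Sptan1 (20740) spans chr2:29965560-30031451, Sptbn1 (20742) chr11:30099395-30268384, Ank2 (109676) chr3:126921607-127500347 and Ezr (22350) chr17:6738131-6782780. Vim, Tmod1 and Sptan1 lie on the plus strand and the others on the minus strand. Bfsp2 and Ank2 are each overlapped by an antisense gene of the count table (5830418P13Rik and Gm16958), and Tmod1 and Ezr by a gene on the opposite strand (Tstd2 and Sytl3). Sptan1 holds Mir6997 on its own strand. No label or processing note used here states whether counting used strand, so reads of such overlaps cannot be told apart.

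The genes differ widely in size, so levels were compared between them only as CPM per kb of exon, from a union of exons of 1.66 kb for Bfsp2 to 17.6 kb for Ank2. On this scale Vim was the most abundant of the 8 in WT epithelia, with a mean of 1136.3, followed by Bfsp1 at 268.9, Bfsp2 at 249.4, Sptan1 at 175.3, Ezr at 102.2, Sptbn1 at 48.8, Ank2 at 39.3 and Tmod1 at 10.9. The ranges of Bfsp1 and Bfsp2 overlapped in epithelia of every condition, as did those of Sptbn1 and Ank2 in WT and LEGSKO and those of Bfsp2 and Sptan1 in LEGSKO+BSO, so these neighbours were not ordered there. In WT fibers the order was Bfsp1 at 8823, Bfsp2 at 5432, Vim at 1289, Sptan1 at 428, Sptbn1 at 225, Ezr at 108, Tmod1 at 63.8 and Ank2 at 53.3 CPM per kb, and of the neighbours only Tmod1 and Ank2 overlapped. The Bfsp1 mean includes 13830.8 in library 1, with 6838.5 to 7603.6 in the others. Without library 1 Tmod1 (54.8 to 62.1) and Ank2 (50.3 to 53.8) did not overlap. Those last 2 genes stood in the other order in LEGSKO+BSO fibers, with Ank2 at 58.6 and Tmod1 at 53.8 and no overlap. The 8 genes together took 0.896 to 1.03% of the counts of an epithelial library and 2.39 to 2.61% of a fiber library.

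**Figure D1:**
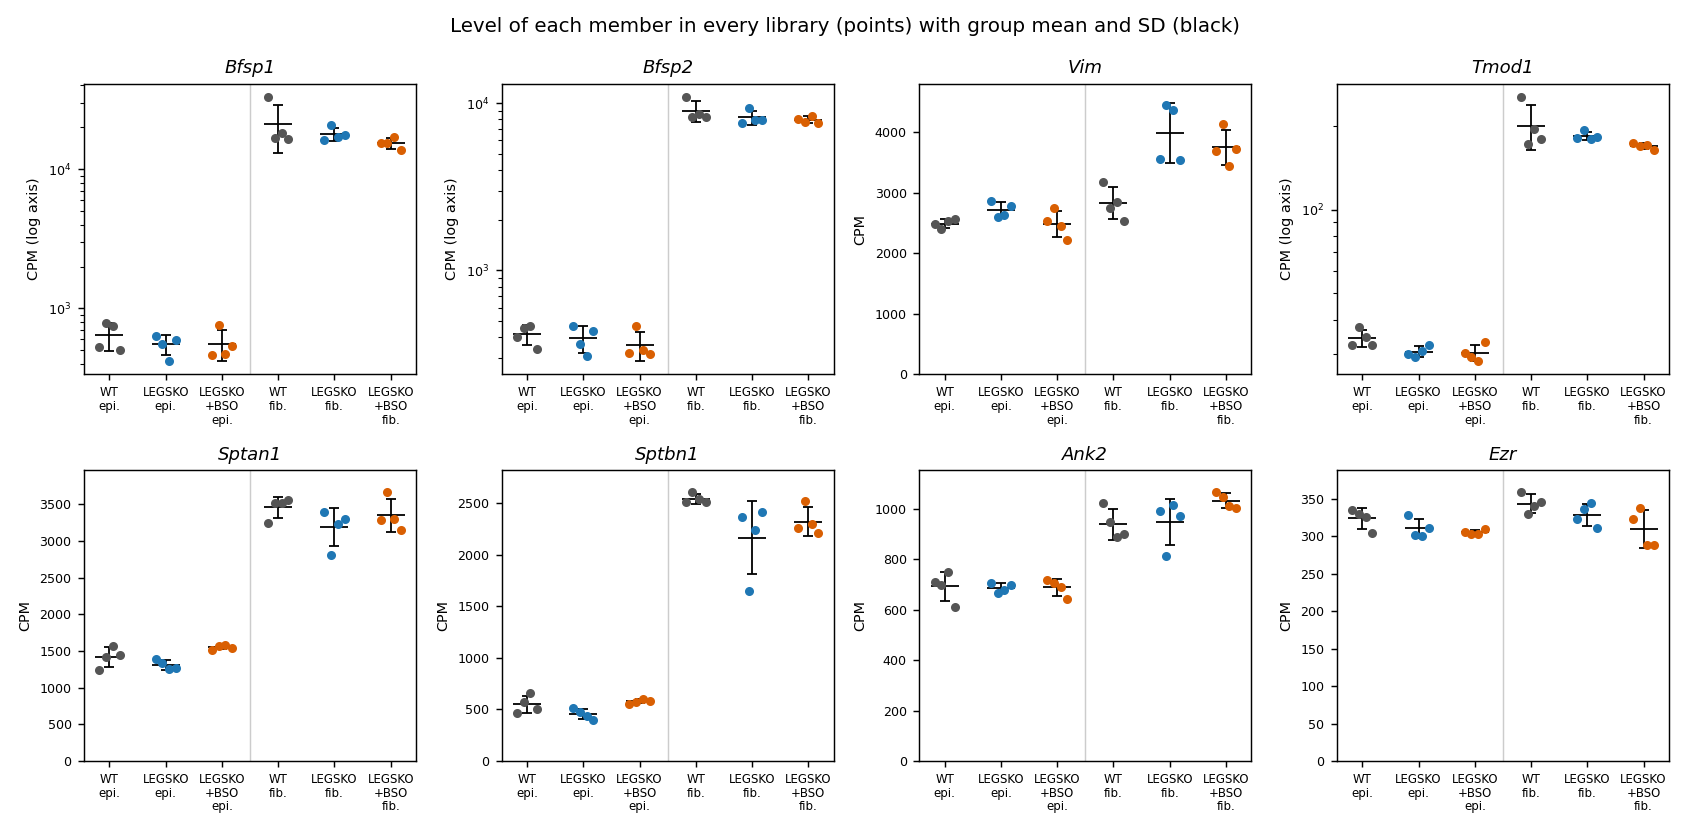
Normalised CPM of each of the 8 genes in every library (vertical axis, logarithmic for Bfsp1, Bfsp2 and Tmod1), by group along the horizontal axis; coloured points are libraries and black marks the mean ± SD of 4. Bfsp1 and Bfsp2 sat more than an order of magnitude higher in fibers, Vim was higher in LEGSKO and LEGSKO+BSO fibers than in WT fibers, and the high point in WT fibers for Bfsp1 is library 1, at 33056 CPM.

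In WT lenses 6 of the 8 genes were higher in fibers than in epithelia and none was lower, under edgeR's quasi-likelihood test with adjusted p below 0.05 on libraries scaled by the trimmed mean of M-values (TMM), against 37% of the 15560 genes tested that were higher in fibers. In LEGSKO and LEGSKO+BSO 7 of 8 were higher, against 36.8% and 38.1% of genes, and DESeq2 gave the same counts of 6, 7 and 7, against 35.5%, 35.3% and 36.6% of genes. The median log2 difference of the members was 1.75, 1.77 and 1.56 in WT, LEGSKO and LEGSKO+BSO, beside -0.09, -0.08 and -0.09 for all genes tested. Scaling matters here: crystallins fill a large share of fiber libraries, and with total counts alone the median of all genes moved to -1.25, -1.18 and -1.15 in the 3 conditions, with 1982 genes called higher and 11462 lower in WT. The count of members in WT changed too: with total counts Sptan1 was not called, Vim and Ank2 turned negative and Ezr was called lower. In whole tissue, fewer cells of a type and less RNA per cell cannot be told apart.

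Bfsp1, whose product filensin is the larger partner of the beaded filament, had 531, 785, 748 and 507 CPM in the 4 libraries of WT epithelia. WT fibers held 33056, 16776, 18173 and 16344 CPM, where the first library was far above the rest. The tissues did not overlap in any condition: epithelia ran from 422 to 633 in LEGSKO and 463 to 762 in LEGSKO+BSO, and fibers from 16180.4 to 20711 and 13781 to 17138. The log2 difference in WT was 5.04 ± 0.24 (SE, edgeR adjusted p = 1.22e-15), or 32.8-fold, and 3.78 with total counts. LEGSKO gave 5.02 and LEGSKO+BSO gave 4.79, and without library 1 of WT fibers the WT value was 4.71. Only 0.887% of the genes tested, 138 in number, had a larger log2 difference than Bfsp1 in WT.

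Bfsp2, whose product phakinin assembles with filensin, had 402, 454.5, 463 and 338 CPM in WT epithelia and 10917, 8217.5, 8658 and 8318 in WT fibers, again with no overlap and with library 1 of the fibers on top. LEGSKO epithelia held 464, 363, 309 and 435 and LEGSKO fibers 7649.9, 9399, 7906.5 and 7932. LEGSKO+BSO epithelia held 319.6, 464.5, 333 and 316 and LEGSKO+BSO fibers 8074, 7743, 8432 and 7605, so the gap between tissues was present in every condition. The log2 difference was 4.45 ± 0.16 in WT (SE, edgeR adjusted p = 1.20e-17), or 21.8-fold, with 4.39 for LEGSKO and 4.48 for LEGSKO+BSO; with total counts these were 3.25, 3.28 and 3.42. The epithelial level of both genes stood beside other fiber transcripts: the summed CPM of the 13 fiber markers ran from 14954 to 23780 in WT epithelia, 11958 to 21085 in LEGSKO and 10524 to 19011 in LEGSKO+BSO, and the part of fiber RNA in those levels was not tested.

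**Figure D2:**
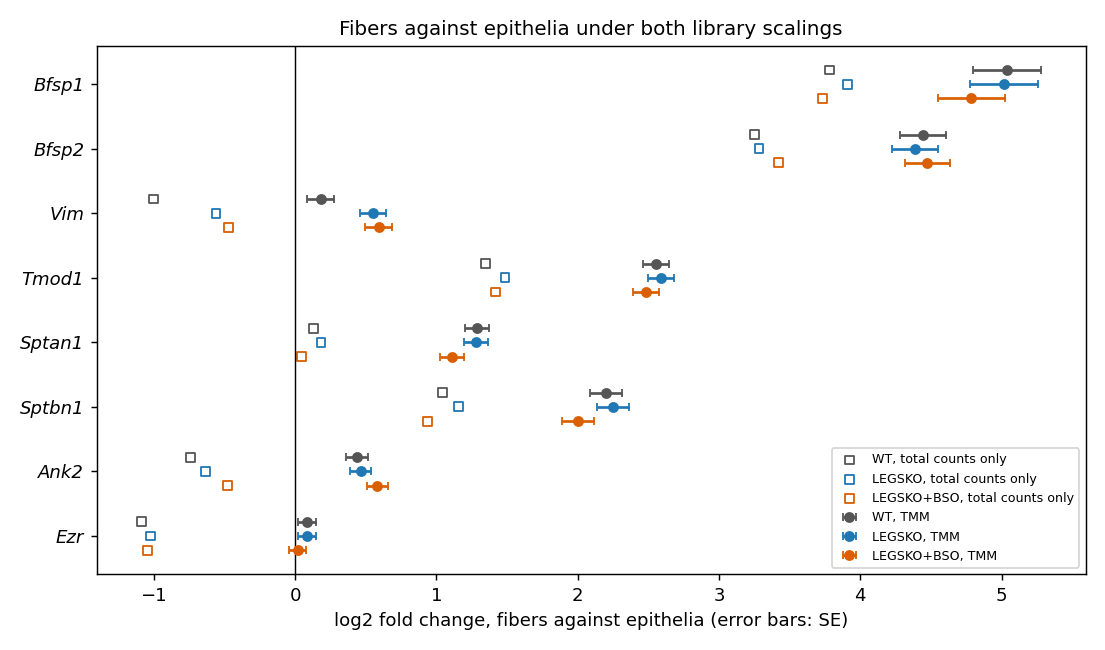
Log2 difference between fibers and epithelia (horizontal axis) for each of the 8 genes (vertical axis) by condition. Filled circles use TMM scaling and carry ± SE, and open squares use total counts alone. Bfsp1, Bfsp2, Tmod1 and Sptbn1 lay above 0 under both scalings, as did Sptan1, though close to 0 with total counts. Vim, Ank2 and Ezr lay above 0 with TMM and below 0 with total counts.

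Tmod1, which caps the slow-growing ends of the short actin filaments in the lattice, was the scarcest member in epithelia, with 32.2, 37.6, 34.7 and 32.5 CPM in WT. WT fibers had 256, 173, 196 and 181 CPM. The groups did not overlap, and the log2 difference was 2.55 ± 0.09 (SE, edgeR adjusted p = 1.28e-17), or 5.87-fold, 2.40 without library 1 of WT fibers and 1.35 with total counts. LEGSKO gave 2.59 and LEGSKO+BSO 2.48. Among all genes tested, 5.3% had a larger difference than Tmod1 in WT.

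The spectrin pair also lay higher in fibers, the beta subunit more than the alpha. Sptbn1, encoding βII-spectrin, had 467, 574, 655 and 508.5 CPM in WT epithelia and 2506, 2606, 2533 and 2505 in WT fibers, a log2 difference of 2.20 ± 0.11 (SE, edgeR adjusted p = 6.00e-15) or 4.60-fold, and 1.04 with total counts. Sptan1, encoding αII-spectrin, had 1235, 1418, 1569 and 1445 CPM in WT epithelia and 3243, 3512, 3518 and 3559.7 in WT fibers. Its groups did not overlap either, and the log2 difference was 1.29 ± 0.08 (SE, edgeR adjusted p = 5.41e-13), or 2.44-fold, yet with total counts it was 0.13 (adjusted p = 0.362) and was no longer called. In LEGSKO and LEGSKO+BSO the differences were 2.25 and 2.00 for Sptbn1 and 1.28 and 1.11 for Sptan1, the last pair being 0.18 and 0.04 with total counts, neither of them called.

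Ank2, encoding ankyrin-B, which ties membrane proteins to spectrin, ran from 613 to 749 CPM in WT epithelia and from 887 to 1023 in WT fibers, with no overlap. The log2 difference was 0.44 ± 0.08 (SE, edgeR adjusted p = 1.63e-05), or 1.36-fold higher in fibers, but -0.74 with total counts, so its direction depends on the scaling. Ezr, encoding ezrin, a linker of actin to the membrane, ran from 304 to 335 CPM in WT epithelia and from 329.5 to 359 in WT fibers, which overlapped. Its difference of 0.09 ± 0.06 (0.04 without library 1 of WT fibers) was not called (SE, edgeR adjusted p = 0.219), nor were 0.08 in LEGSKO and 0.02 in LEGSKO+BSO, and with total counts Ezr was called lower in fibers, at -1.09, -1.02 and -1.05; DESeq2's size factors put the LEGSKO+BSO value at -0.05. Read against the shift of all genes, both stayed above the median of genes tested under either scaling.

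Vim in WT differed little between tissues: epithelia held 2476.5, 2404, 2528.5 and 2559 CPM and fibers 3178, 2745, 2844 and 2538, with the lowest fiber library inside the epithelial range. The log2 difference was 0.18 ± 0.09 (SE, edgeR adjusted p = 0.0846) with TMM, 0.10 without library 1 of WT fibers and -1.0 with total counts, and leaving out library 4 of WT fibers brought it to a call at adjusted p = 0.0405. In LEGSKO the difference was 0.55 (edgeR adjusted p = 1.16e-05) and in LEGSKO+BSO 0.59 (4.12e-06), with no overlap between tissues, but -0.56 and -0.47 with total counts. The share of genes tested with a larger difference than Vim was 41% in WT and 30.4% for both LEGSKO and LEGSKO+BSO.

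Across conditions Vim was the only member to pass edgeR's test, in fibers against WT. WT fibers held 3178, 2745, 2844 and 2538 CPM, LEGSKO fibers 3563, 4447, 4369 and 3549.5, and LEGSKO+BSO fibers 3696, 4144, 3449 and 3723. All 8 glutathione-deficient fiber libraries lay above all 4 WT libraries, while LEGSKO and LEGSKO+BSO overlapped. Vim rose in LEGSKO fibers by a log2 value of 0.49 ± 0.10 (SE, edgeR adjusted p = 0.0270; 95% confidence interval 0.26 to 0.72), or 1.41-fold, and was the 1 member of 8 called, against 1.64% of 13436 genes. In LEGSKO+BSO fibers Vim rose by 0.41 ± 0.10 (SE, edgeR adjusted p = 0.0333; interval 0.18 to 0.64), or 1.33-fold, again the 1 member called, against 5.52% of genes. Both comparisons use the same 4 WT libraries, so they are not independent of each other. DESeq2 gave adjusted p = 7.87e-05 and 0.00124, also with Vim as the 1 member called, beside 3.83% and 8.74% of genes. At an unadjusted p below 0.05 stood 2 members in LEGSKO (Vim and Sptbn1) and 4 in LEGSKO+BSO (Bfsp1, Vim, Tmod1 and Ezr), beside 15% and 21.5% of genes. With total counts the log2 values were 0.57 and 0.58, the latter beside a median of 0.14 for all genes.

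The Vim calls lay near the threshold and depended on which libraries entered. Without library 1 of WT fibers the log2 values were 0.55 and 0.47, with edgeR adjusted p = 0.00201 and 0.00460. The LEGSKO call was lost when library 2, 3 or 4 of WT fibers or library 2 or 3 of LEGSKO fibers was left out, with adjusted p up to 0.117, and was kept in 3 of the 8 fits without a WT or LEGSKO fiber library. The LEGSKO+BSO call was lost without library 2, 3 or 4 of WT fibers or without any of the 4 LEGSKO+BSO fiber libraries, with adjusted p up to 0.0798, and was kept in 1 of 8, the fit without library 1 of WT fibers. Over these fits the log2 value stayed between 0.44 and 0.55 for LEGSKO and between 0.37 and 0.47 for LEGSKO+BSO. With the replicate number as a block, adjusted p was 0.0501 in LEGSKO, where the call was lost, and 0.0498 in LEGSKO+BSO.

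In epithelia Vim was not called in either comparison against WT. LEGSKO epithelia held 2859, 2604, 2625 and 2779.6 CPM, all above WT, for a log2 value of 0.11 ± 0.07 (SE, edgeR adjusted p = 0.544). LEGSKO+BSO epithelia held 2541.5, 2744, 2452 and 2226.5, overlapping WT, for 0.00 ± 0.07 (edgeR adjusted p = 0.990). The difference of the Vim change between tissues was itself tested and not called: 0.37 ± 0.13 in LEGSKO (SE, edgeR adjusted p = 0.373) and 0.41 ± 0.13 in LEGSKO+BSO (0.172), or 0.154 and 0.0754 without library 1 of WT fibers. edgeR and DESeq2 called no member in these tests of the difference between tissues, beside edgeR's 0.103% of genes for LEGSKO and 0.276% for LEGSKO+BSO, and at an unadjusted p below 0.05 only Vim stood in each, beside 9.06% and 13.6% of genes. DESeq2 called 0.618% and 2.09% of genes there.

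**Figure D3:**
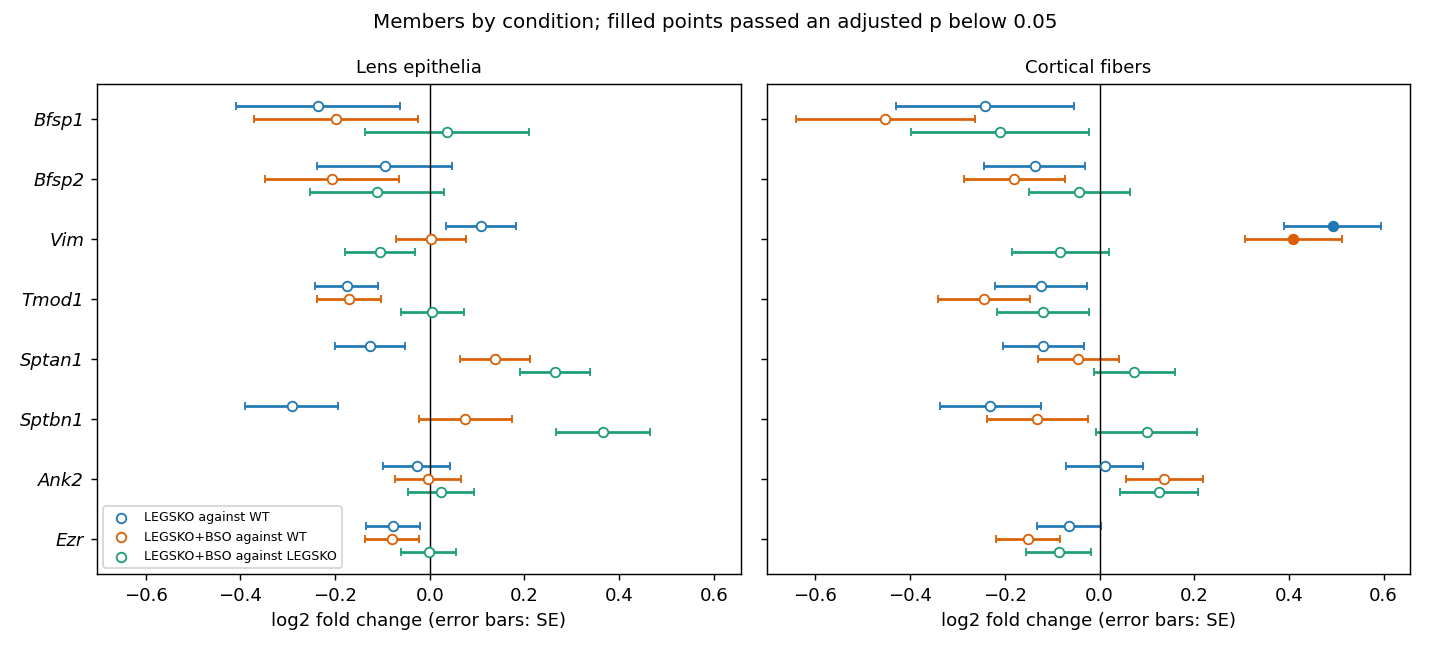
Log2 change ± SE (horizontal axis) of each of the 8 genes (vertical axis) in the 3 comparisons of conditions, epithelia and fibers apart. Filled symbols mark an edgeR adjusted p below 0.05. Vim in fibers is the only gene with filled symbols, at 0.49 in LEGSKO and 0.41 in LEGSKO+BSO against WT.

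Vim is also made by cells other than lens cells, so markers of these were read in the same fiber libraries. Summed over 8 stroma markers the level was 6.01 to 15 CPM in WT, 4.57 to 12 in LEGSKO and 0.723 to 13.7 in LEGSKO+BSO, with Dcn, Lum and Kera at 0 in all 3 groups. Most of that sum was Pdgfra (0.624 to 14.6), which is also on the epithelial list and stood at 99 to 318 CPM in epithelia. The sum of 12 immune markers ran from 1.11 to 1.88 in WT, 1.41 to 1.85 in LEGSKO and 5 to 7.57 in LEGSKO+BSO, where Lyz2 was called higher (log2 2.75, edgeR adjusted p = 6.94e-05). The sum of 10 vessel markers ran from 108 to 153 in WT, 124 to 157 in LEGSKO and 162 to 174 in LEGSKO+BSO, nearly all of it Pdgfrb (105 to 171), with Kdr and Cldn5 at 0. The sum of 10 muscle markers ran from 742 to 850 CPM in WT, 941 to 1126 in LEGSKO and 892 to 1094 in LEGSKO+BSO, with 1 of the 3 tested called. Almost all of that sum was Acta2, smooth muscle actin, which was called at 0.39 ± 0.08 in LEGSKO (SE, edgeR adjusted p = 0.0345) and 0.38 ± 0.08 in LEGSKO+BSO (0.0192), while Acta1 had medians of 22, 18.3 and 18.2 CPM in the 3 groups and Myh11 stayed under 1 CPM. The sum of lens epithelial markers ran from 2659.9 to 2970.3 in WT fibers, 2472 to 2730.3 in LEGSKO and 2696 to 2754 in LEGSKO+BSO, with 1 of 11, Mab21l1, called higher in LEGSKO. Most of that sum was Sfrp1 (2184 to 2730 CPM in fibers), the marker higher in fibers than in epithelia. Pax6 ran from 86.1 to 106 in WT, 113 to 126 in LEGSKO and 92.8 to 110 in LEGSKO+BSO fibers. Npnt ran from 15.9 to 24.3, 27.9 to 32.7 and 22.3 to 38.7 in the same order. Foxe3, Cdh1 and Mab21l1 also had a higher median CPM in LEGSKO than in WT fibers. The medians of Pdgfra, Sfrp1, Cdh11, Gja1, Fzd1 and Slc38a3 were lower there. The median log2 value of the 11 markers against WT fibers was -0.02 in LEGSKO and -0.05 in LEGSKO+BSO. The sum of 12 retinal markers ran from 3.61 to 6.16 in WT fibers, 5.8 to 53 in LEGSKO and 4.77 to 5.65 in LEGSKO+BSO. Of the 3 retinal markers tested 1, Pde6b, was called higher in LEGSKO. For 8 corneal and conjunctival markers the sum ran from 4.11 to 7.64, 7.55 to 13.7 and 3.78 to 9.29, with 0 of 2 called. For 9 pigment markers it ran from 17 to 24.7, 17.3 to 22.9 and 15.1 to 25, with 0 of 4 called. The part of these markers in the Vim result was not tested.

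The beaded filament genes passed no test between conditions. Fibers of LEGSKO held 16180.4, 20711, 16889 and 17674 CPM of Bfsp1 and fibers of LEGSKO+BSO 15384, 15326, 17138 and 13781, all under library 1 of WT fibers and overlapping the other 3. Against WT the log2 values for Bfsp1 were -0.24 ± 0.19 in LEGSKO (SE, edgeR adjusted p = 0.585) and -0.45 ± 0.19 in LEGSKO+BSO (0.178), and without library 1 of WT fibers they became 0.05 and -0.15. For Bfsp2 in fibers they were -0.14 ± 0.11 (SE, edgeR adjusted p = 0.583) and -0.18 ± 0.11 (0.352), and without that library -0.04 and -0.08. LEGSKO+BSO against LEGSKO fibers gave -0.21 ± 0.19 for Bfsp1 and -0.04 for Bfsp2, with adjusted p of 0.736 and 0.919. With all libraries in, the 95% bounds for Bfsp2 in fibers against WT were -0.38 to 0.10 in LEGSKO and -0.42 to 0.06 in LEGSKO+BSO.

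In epithelia Bfsp1 had 633, 560.1, 422 and 593 CPM in LEGSKO and 463, 762, 469 and 539 in LEGSKO+BSO, both overlapping WT. The log2 values against WT were -0.24 ± 0.17 and -0.20 ± 0.17 for Bfsp1 (SE, edgeR adjusted p = 0.573 and 0.637) and -0.10 ± 0.14 and -0.21 ± 0.14 for Bfsp2 (0.805 and 0.531). The spread of both between epithelial libraries was wide, with coefficients of variation of 16.6 to 25.1% for Bfsp1 and 14 to 19.9% for Bfsp2, beside 2.72 to 8.62% for Vim and 1.06 to 4.2% for Ezr.

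No member passed the edgeR test in any of the 3 epithelial comparisons, in which 0.842% of 15089 genes were called for LEGSKO against WT, 1.17% for LEGSKO+BSO against WT and 0.722% for LEGSKO+BSO against LEGSKO. At an unadjusted p below 0.05 the counts were 2 (Tmod1 and Sptbn1), 1 (Tmod1) and 2 (Sptan1 and Sptbn1), beside 14.1%, 14.8% and 19.3% of genes. DESeq2 called 0, 0 and 2 members, beside 3.17%, 3.84% and 4.98% of genes. The 2 that DESeq2 called were the spectrins in LEGSKO+BSO against LEGSKO. For Sptbn1, LEGSKO epithelia held 509.9, 473.5, 439.7 and 397 CPM and LEGSKO+BSO epithelia 554, 577, 600.1 and 582. These did not overlap, and the log2 value was 0.37 ± 0.10 (SE, edgeR adjusted p = 0.0909; DESeq2 adjusted p = 0.00841; 95% interval 0.14 to 0.59). For Sptan1, LEGSKO epithelia held 1393, 1337, 1249.9 and 1267 CPM and LEGSKO+BSO epithelia 1518, 1574, 1577 and 1544. They too were separate, with a log2 value of 0.26 ± 0.07 (SE, edgeR adjusted p = 0.0999; DESeq2 adjusted p = 0.00512; 95% interval 0.10 to 0.43). For both genes WT epithelia overlapped both groups, and against WT neither gene was called: Sptbn1 gave -0.29 ± 0.10 in LEGSKO (SE, edgeR adjusted p = 0.183) and 0.07 ± 0.10 in LEGSKO+BSO (0.772), Sptan1 -0.13 ± 0.07 (0.465) and 0.14 ± 0.07 (0.415). The members' median log2 value in the 3 comparisons was -0.11, -0.04 and 0.01, beside -0.01, -0.01 and 0.00 for all genes.

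In fibers the spectrins gave no call. Sptbn1 had 2359, 1648, 2234 and 2414 CPM in LEGSKO and 2253, 2517, 2292.5 and 2203 in LEGSKO+BSO. The LEGSKO fibers all lay under WT, with library 2 lowest, but the log2 value of -0.23 ± 0.11 did not pass (SE, edgeR adjusted p = 0.325), and LEGSKO+BSO gave -0.13 ± 0.11 (0.516). Sptan1 had 3399, 2808.5, 3238 and 3305 CPM in LEGSKO fibers and 3289, 3669, 3297 and 3148 in LEGSKO+BSO fibers. Both groups overlapped WT, but LEGSKO only through library 1 of WT fibers, at 3243 CPM against 3512 to 3559.7 in the others. The log2 values were -0.12 ± 0.09 and -0.05 ± 0.09 (SE, edgeR adjusted p = 0.548 and 0.802). Without library 1 of WT fibers they were -0.15 and -0.08, neither of them called.

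Tmod1 in fibers had 182, 195, 180 and 183 CPM in LEGSKO and 174, 169.8, 172 and 164 in LEGSKO+BSO. The LEGSKO+BSO libraries all lay under the LEGSKO libraries, by -0.12 (edgeR adjusted p = 0.702). Against WT the values were -0.12 ± 0.10 in LEGSKO (SE, edgeR adjusted p = 0.591) and -0.24 ± 0.10 in LEGSKO+BSO (0.161), and without library 1 of WT fibers 0.00 and -0.11. In epithelia Tmod1 had 30.1, 29.2, 30.8 and 32.4 CPM in LEGSKO and 30.4, 29.4, 28.4 and 33.1 in LEGSKO+BSO, with log2 values against WT of -0.18 ± 0.07 and -0.17 ± 0.07 (SE, edgeR adjusted p = 0.243 and 0.249).

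Ank2 and Ezr passed no test between conditions either. Ank2 ran from 668 to 706.5 CPM in LEGSKO epithelia, 642 to 718 in LEGSKO+BSO epithelia, 814 to 1013 in LEGSKO fibers and 1005 to 1067 in LEGSKO+BSO fibers. Its largest value against WT was 0.14 ± 0.08 in LEGSKO+BSO fibers (SE, edgeR adjusted p = 0.354). Ezr ran from 300.3 to 327, 303 to 309.8, 311 to 344 and 287.5 to 337 CPM in the same order of groups, and its largest value against WT was -0.15 ± 0.07 in LEGSKO+BSO fibers (SE, edgeR adjusted p = 0.214). Comparing LEGSKO+BSO with LEGSKO in fibers, edgeR and DESeq2 called no member, and none had an unadjusted p below 0.05. Of all genes edgeR called 0.0298%, 4 in number, DESeq2 called 0.597%, and 10.5% had an unadjusted p below 0.05. Over the 3 fiber comparisons the members' median log2 value was -0.12, -0.14 and -0.06, beside -0.01, -0.01 and -0.00 for all genes.

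Ratios of counts within a library do not depend on how libraries are scaled, and 3 were formed: Bfsp1 to Bfsp2, the beaded filament partners, Sptan1 to Sptbn1, the spectrin subunits, and Bfsp2 to Vim, beaded filament against ordinary intermediate filament. Each was compared between groups by a two-sided exact permutation test of its log2 value, 27 comparisons in all. With 4 libraries against 4 the smallest p the test can give is 0.0286. The smallest value was reached by 13 of the 27, the comparisons in which the groups did not overlap. With 13 tied there, it adjusted over the 27 to 0.0594, so none passed 0.05 after adjustment. That adjusted value depends on how many of the 27 were tied.

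The Bfsp1 to Bfsp2 ratio of counts was 1.32, 1.73, 1.61 and 1.5 in WT epithelia and 3.03, 2.04, 2.1 and 1.96 in WT fibers. Every fiber library lay above every epithelial library, 1.47-fold on average (a log2 difference of 0.55, or 0.41 without library 1 of WT fibers), and the same held in LEGSKO (1.54-fold) and LEGSKO+BSO (1.25-fold). Sptan1 to Sptbn1 went the other way, from 2.65, 2.47, 2.39 and 2.84 in WT epithelia to 1.29, 1.35, 1.39 and 1.42 in WT fibers, 1.9-fold lower, and 1.95-fold and 1.86-fold lower in LEGSKO and LEGSKO+BSO. The spectrin subunits therefore stood nearer to equal counts in fibers, with no correction for their lengths. Bfsp2 to Vim went from 0.162, 0.189, 0.183 and 0.132 in WT epithelia to 3.44, 2.99, 3.04 and 3.28 in WT fibers, 19.3-fold, while the gap was 14.5-fold in LEGSKO and 14.9-fold in LEGSKO+BSO. All 9 of these tissue comparisons had an exact permutation p of 0.0286.

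Between conditions, the Bfsp2 to Vim ratio in fibers separated both deficient groups from WT. LEGSKO fibers had 2.15, 2.11, 1.81 and 2.23, and LEGSKO+BSO fibers 2.18, 1.87, 2.44 and 2.04, against 2.99 to 3.44 in WT. The ratio was 1.54-fold lower in LEGSKO and 1.5-fold lower in LEGSKO+BSO than in WT (exact permutation p = 0.0286, adjusted 0.0594, for each), and WT library 1 lay at the top with 3.44 but was not apart from the others. Smaller separations were a Sptan1 to Sptbn1 ratio 1.06-fold higher in LEGSKO+BSO than in WT fibers, 1.43 to 1.46 against 1.29 to 1.42, and a Bfsp1 to Bfsp2 ratio 1.12-fold lower in LEGSKO+BSO than in LEGSKO fibers, 1.81 to 2.03 against 2.12 to 2.23. In epithelia no ratio separated the conditions.

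**Figure D4:**
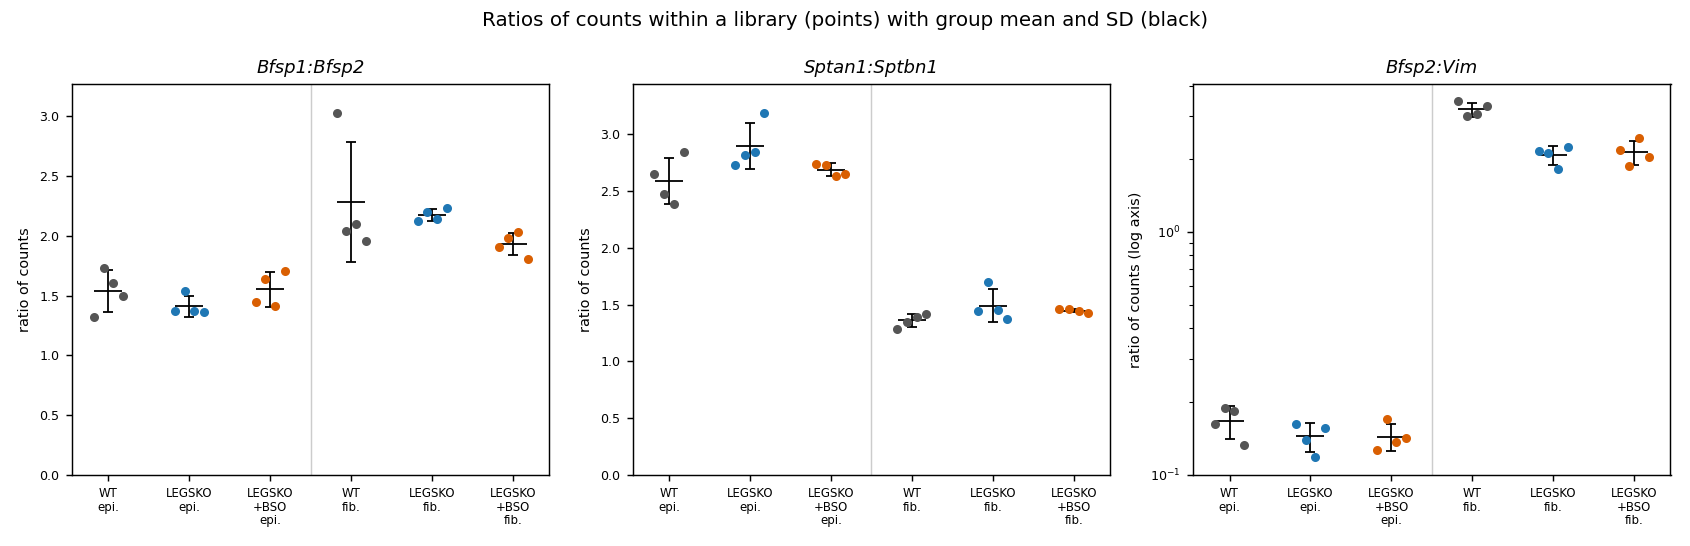
Ratio of counts of Bfsp1 to Bfsp2, Sptan1 to Sptbn1 and Bfsp2 to Vim in every library (vertical axis, logarithmic for Bfsp2 to Vim), by group along the horizontal axis; points are libraries. In fibers the Bfsp2 to Vim ratio sat at 2.99 to 3.44 in WT and at 1.81 to 2.44 in the deficient groups, with no overlap.

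Other genes of the same systems were read from lists, with calls by edgeR at adjusted p below 0.05. Of 15 intermediate filament and plakin genes tested, 2 rose in LEGSKO+BSO against LEGSKO epithelia, both plakins that cross-link filaments: Plec (0.45 ± 0.09 SE, adjusted p = 0.0428) and Dst (0.54 ± 0.11, adjusted p = 0.0428). These calls were not stable: edgeR called 0 genes in that comparison without library 2 or 4 of LEGSKO epithelia or library 1 or 3 of LEGSKO+BSO epithelia. No gene of that list was called in the other 5 comparisons of conditions. Between tissues 6 were higher and 6 lower in WT fibers, and 6 higher and 7 lower in LEGSKO and in LEGSKO+BSO, against 2 and 12, 2 and 11, and 1 and 12 with total counts. Synm, encoding synemin, which assembles with vimentin, was higher in fibers by 3.64 in WT and 2.49 with total counts, and Evpl, encoding envoplakin, was lower, at -4.53 and -5.67.

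Among other spectrin, ankyrin, adducin and protein 4.1 genes, 15 of which were tested, Epb41l3, of the protein 4.1 family, fell in LEGSKO epithelia (-0.35 ± 0.07 SE, edgeR adjusted p = 0.0274). Between tissues 9 were higher and 5 lower in WT fibers with TMM and 5 and 7 with total counts; the adducin Add2 was higher by 2.29 (1.11 with total counts) and Add3 lower at -2.09 (-3.24).

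Of 17 actin, tropomyosin and tropomodulin genes tested in fibers, Myh9, a nonmuscle myosin heavy chain, rose in LEGSKO+BSO against WT (0.34 ± 0.08 SE, edgeR adjusted p = 0.0212), and Actn1, the actin cross-linker alpha-actinin, fell (-0.45 ± 0.12 SE, edgeR adjusted p = 0.0448). Of 20 such genes 8 were higher and 10 lower in WT fibers than in epithelia with TMM, and 1 and 16 with total counts, with Tpm1 at -2.43 and Myh9 at -1.88 (-3.58 and -3.03 with total counts).

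Among ezrin's relatives and partners, Slc9a3r1, a scaffold that binds ezrin, rose in LEGSKO epithelia (0.73 ± 0.13 SE, edgeR adjusted p = 0.0135), 1 of 9 tested, and Ppp1cb, a phosphatase catalytic subunit, fell in LEGSKO+BSO against WT fibers (-0.27 ± 0.07 SE, edgeR adjusted p = 0.0317), 1 of 8. Between WT tissues 7 were higher and 2 lower in fibers with TMM, and 3 and 4 with total counts, with Prx, encoding the fiber scaffold periaxin, higher by 1.87 or 0.72. Of 10 fiber membrane proteins that bind the skeleton, 7 were higher and 3 lower in WT fibers, or 4 and 4 with total counts. None of the genes of these lists was called in the tests of the difference between tissues.

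Genes whose log2 CPM moved most like Bfsp1, Bfsp2 and Vim were listed within each tissue by Pearson's r over its 12 libraries, as a description, since all points share libraries, depth and scaling. In epithelia, among 8816 genes, those nearest to Bfsp1 were Lenep (r = 0.981), Hspa8 (0.931) and Lgsn (0.907), those nearest to Bfsp2 were Stk39 (0.953), Nol3 (0.953) and Pabpc1 (0.945), and those nearest to Vim were Usf2 (0.962), Poldip2 (0.961) and Ensa (0.942). Fibers, with 8484 genes, gave Ppib (0.99), Lenep (0.986) and Eif5b (0.984) for Bfsp1, Hint1 (0.977), Dbnl (0.969) and Sh3bgr (0.968) for Bfsp2, and Mgarp (0.959), Morn4 (0.955) and Sox2ot (0.954) for Vim. Without library 1 of WT, the only library left out here, the fiber lists read Txndc9 (0.969), Cct5 (0.968) and Gas5 (0.96) for Bfsp1, Hnrnph3 (0.953), Hint1 (0.94) and Stard3nl (0.927) for Bfsp2, and Tinag (0.97), Wipi1 (0.968) and Dapl1 (0.966) for Vim, with Hint1 the only gene in both.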

How the data were processed

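RNA-seq libraries of total RNA from mouse lens epithelia and cortical fibers, 4 in each of 6 groups, were analysed from the whole-number counts per Entrez gene that the authors deposited. Per the submitters' processing notes, bcl2fastq, CASAVA 1.8, TopHat and DESeq were used with mm10 (GRCm38), the read counter and its strand setting not given in the sources used here. Symbols were found for 24334 of 24415 genes, and genes without one held 0.914% of counts.

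Counts were filtered with edgeR 4.0.16 (filterByExpr, minimum count 10, minimum total 15), scaled by TMM and tested with its quasi-likelihood F test in R 4.3.3, with Benjamini-Hochberg adjustment over all genes tested. Conditions were fitted within a tissue (12 libraries), tissues and interactions over 24 libraries; the biological coefficient of variation was 14.2%, 12.8% and 13.7% in the epithelial, fiber and joint fits. Printed CPM use the TMM factors of the joint fit, which ran from 1.42 to 1.54 in epithelia and 0.623 to 0.75 in fibers, with 0.442 in library 1 of WT fibers. Log2 CPM took a prior count of 1. Lengths are unions of exons of protein-coding GENCODE transcripts. The scripts were tested on simulated data. No replicate pair agreed within counting noise (chi-square per degree of freedom 5.43 or more). Precision is set by the 19.3 to 46.6 M (mega) counts of a library and by the 4 libraries of a group.

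The 8 genes and the related lists were chosen with earlier results of these data known. From each list the text names, per comparison, up to 2 called genes with the smallest adjusted p, and for Bfsp1, Bfsp2 and Vim the 3 genes of highest correlation with mean log2 CPM of at least 3, leaving out Gm, clone and Rik names. Some genes of the lists are not reported here. Marker genes are named beside results they touch. Alternatives were DESeq2 1.42.0 (size factors and Wald test), no filter, crystallins left out of scaling, the replicate number as a block, leaving out each library, and total counts alone, the last added after seeing the data.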

Additional observations from a re-analysis of the deposited data

Results flagged for a closer look

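In 7 of 66 sets of 4 libraries (the 8 genes and 3 ratios in each group) the highest or lowest library stood far from the other 3. For a single set, chance does this about 1 time in 20. The 66 sets share libraries, scaling and genes, so 7 of 66 cannot be read against that rate. Library 1 of WT fibers accounted for 4 of them. It held 33056 CPM of Bfsp1 against 16344 to 18173 in the other 3, and 10917 CPM of Bfsp2 against 8217.5 to 8658. Its Bfsp1 to Bfsp2 ratio was 3.03 against 1.96 to 2.1, and Sptan1 was low there, at 3243 CPM against 3512 to 3559.7. That library also had the highest crystallin share, 50.1% of its counts.

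Bfsp2 stood apart in library 2 of LEGSKO fibers, at 9399 CPM against 7649.9 to 7932, and in library 2 of LEGSKO+BSO epithelia, at 464.5 against 316 to 333. The Bfsp1 to Bfsp2 ratio was 1.54 in library 2 of LEGSKO epithelia against 1.36 to 1.37 in the others. The cause of these separations was not tested.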

How the results depend on the processing

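With total counts in place of TMM, the differences between fibers and epithelia changed sign for Vim (-1.0, -0.56 and -0.47 in WT, LEGSKO and LEGSKO+BSO), Ank2 (-0.74, -0.64 and -0.48) and Ezr (-1.09, -1.02 and -1.05). Total counts also turned values near 0 between conditions. In LEGSKO against WT fibers Ezr became 0.0092, and in LEGSKO+BSO against WT fibers Sptan1 became 0.0916, Sptbn1 0.0137 and Ezr 0.0022. In LEGSKO+BSO against LEGSKO fibers Bfsp2 became 0.0408 and Vim 0.003. Ezr in LEGSKO+BSO tissues was -0.0484 with DESeq2's size factors and with its Wald test. In epithelia Ank2 (-0.0039, LEGSKO+BSO against WT) became 2e-04 with DESeq2's size factors, 0.0064 without crystallins, 0.0393 with total counts and 1e-04 by Wald test. Ezr (-0.0024, LEGSKO+BSO against LEGSKO) became 0.0052, 0.0065, 0.0179 and 0.0053 in the same order. None of these was called between conditions.

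Same-numbered libraries correlated weakly, with 6 of 36 pairs above 0.1 (range -0.234 to 0.241). Pairs of epithelia and fibers within a condition ran from -0.05 to 0.175, mostly above 0. Such low values do not settle whether the numbers pair libraries. With the replicate number as a block, members called in LEGSKO against WT fibers went from 1 to 0. DESeq2 called 2 members in LEGSKO+BSO against LEGSKO epithelia, where edgeR called 0.

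Leaving out each library in turn moved the members called in either fiber comparison against WT between 0 and 1. In epithelia the ranges that crossed 0 were -0.0803 to 0.0063 for Ank2 in LEGSKO against WT, and -0.0446 to 0.0559 for Vim and -0.0563 to 0.0313 for Ank2 in LEGSKO+BSO against WT. In LEGSKO+BSO against LEGSKO epithelia they were -0.1475 to 0.1188 for Bfsp1, -0.0374 to 0.0416 for Tmod1 and -0.0148 to 0.0349 for Ezr. In LEGSKO against WT fibers they were -0.3437 to 0.0546 for Bfsp1, -0.1862 to 0.0047 for Tmod1 and -0.0227 to 0.0804 for Ank2. In LEGSKO+BSO against LEGSKO fibers they were -0.0703 to 0.0242 for Bfsp2 and -0.0126 to 0.1615 for Sptbn1, and Ezr between LEGSKO+BSO tissues ran from -0.0237 to 0.0542. Log2 ratios of counts crossed 0 for Bfsp1 to Bfsp2 in LEGSKO+BSO against WT epithelia (-0.0594 to 0.0696) and LEGSKO against WT fibers (-0.1147 to 0.0933), for Sptan1 to Sptbn1 in LEGSKO+BSO against LEGSKO fibers (-0.0783 to 0.0271), and for Bfsp2 to Vim in LEGSKO+BSO against LEGSKO epithelia (-0.0986 to 0.0556) and fibers (-0.0296 to 0.0998). The causes were not tested. Of single-gene values under an alternative, 984 kept direction and side of the threshold, 49 turned, 16 lost a call and 3 gained one.

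Over all genes, edgeR called 127, 177 and 109 in the epithelial comparisons (LEGSKO and LEGSKO+BSO against WT, then LEGSKO+BSO against LEGSKO), 220, 742 and 4 in fibers, and 16 and 43 in the tests of the difference between tissues. DESeq2's Wald test called 460, 580, 649, 514, 1172, 80, 83 and 300 in the same order. Total counts gave 64 in the third, and 75 (67 higher, 8 lower, against 147 and 73) and 173 (135 and 38, against 410 and 332) in fibers against WT, and 4 and 13 in the last pair. The block gave 46 in the third, 143 in the fourth and 2 in the sixth, and no filter gave 14 in the sixth. Leaving out 1 library gave 40 to 183, 41 to 324, 0 to 442, 61 to 591, 285 to 1075, 1 to 7, 4 to 46 and 12 to 94, with 591 and 1075 in fibers against WT when library 1 of WT fibers was left out.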
